A study of Homo sapiens with 12 samples.

Results

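Phosphoinositide 3-kinases (PI3Ks) add a phosphate to membrane phosphoinositides, and the 9 genes described here encode subunits of these kinases and proteins that hold them back. They are PIK3CA, PIK3CB and PIK3CD, which encode class IA catalytic subunits, PIK3C2B, a class II catalytic enzyme, PIK3R1, PIK3R2 and PIK3R3, which encode class IA regulatory subunits, and the negative regulators INPP4B and PIK3IP1. They were taken by symbol from a table of 27864 genes, each symbol matched 1 row, and all 9 had enough counts to be tested among the 16081 tested genes.

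Messenger RNA was sequenced in T47D cells, a widely used luminal breast cancer line that depends on estrogen receptor signalling and is known to carry an activating PIK3CA mutation. The groups were NF1 knockout cells (NF1KO) treated for 48 h with 3 µM BYL719 (3 libraries) or with the vehicle DMSO (2 libraries), and control cells (CTRL) treated with BYL719 (3 libraries) or with DMSO (3 libraries). NF1 encodes neurofibromin, which switches RAS off, and BYL719 (alpelisib) inhibits p110α, the product of PIK3CA. How the knockout was made, how many clones each genotype represents and whether the replicates were separate cultures are not given in the sources used here, so p-values measure the spread between these libraries, and a difference between the genotypes cannot be told apart from a difference between clones. NF1KO DMSO replicate 1 was not analysed here.

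In class IA PI3K, a regulatory subunit holds a catalytic subunit stable and quiet until it binds phosphotyrosines on an activated receptor or on an adaptor such as IRS1. The kinase then makes PIP3, which recruits AKT, and AKT keeps FOXO transcription factors out of the nucleus. Regulatory subunits can also occur without a catalytic partner. INPP4B, a lipid phosphatase, removes a phosphate from a product of PIP3 breakdown, and PIK3IP1, a membrane protein, binds the catalytic subunit and lowers its activity.

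The 11 libraries held 53283945 to 60148876 counts each. NF1 lay between 0.400 and 0.891 CPM (counts scaled to library size with TMM factors) in the 5 NF1KO libraries, against 147 to 289 CPM in the 6 CTRL libraries, as the genotype labels say. All 9 luminal breast markers were detected in every group, with summed levels of 10712 to 11420 CPM in NF1KO BYL719, 11143 to 11292 CPM in NF1KO DMSO, 12026 to 13997 CPM in CTRL BYL719 and 9925 to 11432 CPM in CTRL DMSO. Of these markers, 3 of 9 were called lower in NF1KO than in CTRL in DMSO and 5 of 9 in BYL719. Of all tested genes, 10.3% and 19% were called lower in these comparisons. ESR1 had a log2 fold change of -0.83 ± 0.09 (SE) in DMSO. With BYL719 against DMSO, 2 of 9 markers were called higher in NF1KO and 5 of 9 in CTRL, where 10.3% and 22.6% of all tested genes were. Summed markers of basal epithelium lay at 0.691 to 1.17 CPM in NF1KO and 0.0928 to 0.305 CPM in CTRL, those of endothelium at 0.388 to 1.05 CPM in NF1KO and 0.259 to 0.483 CPM in CTRL, and those of leukocytes at or below 2.62 CPM. TP63, the 1 tested of 3 basal markers, was called higher in NF1KO in both treatments, with 29 to 58 counts in NF1KO libraries and 1 to 16 in CTRL libraries. PECAM1, of endothelium, had 8 to 39 counts in NF1KO libraries and 0 in every CTRL library. Fibroblast markers summed to 19.0 to 28.8 CPM in NF1KO and 29.4 to 58.6 CPM in CTRL, of which COL1A1 gave most. The part of these marker differences in the results below was not tested.

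By the counts given to each gene, PIK3R1 was the most abundant of the 9 transcripts per length in NF1KO cells but not in CTRL cells. To compare genes, CPM were divided by the length of each gene's merged exons in kilobases. Counts of the readthrough gene LOC110117498-PIK3R3, which covers the span of PIK3R3 and holds 90.7% as many counts, were not added to PIK3R3. Which of these genes the reads belong to is not known. The place of PIK3R3, and with it the first places of PIK3R1 and PIK3CB, is therefore uncertain. In NF1KO BYL719 libraries PIK3R1 stood first at 28.9 ± 3.13 CPM per kilobase (SD, n = 3), and in NF1KO DMSO libraries first at 25.4 ± 0.368 CPM per kilobase (n = 2). In CTRL BYL719 libraries it ranked 6th, at 6.50 ± 0.580 CPM per kilobase (n = 3), and in CTRL DMSO libraries 5th, at 7.72 ± 0.546 CPM per kilobase (n = 3). PIK3CB, which encodes p110β, ranked 2nd in both NF1KO groups, at 16.3 CPM per kilobase with BYL719 and 16.1 with DMSO, and 1st in both CTRL groups, at 16.2 with BYL719 and 15.6 with DMSO.

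The lower end of the order was shared by all groups. INPP4B stood 7th in each group, at 7.14, 6.70, 6.21 and 5.81 CPM per kilobase in NF1KO BYL719, NF1KO DMSO, CTRL BYL719 and CTRL DMSO. PIK3IP1 and PIK3CD took the last places, with PIK3IP1 between 0.425 and 2.08 CPM per kilobase as a group mean and PIK3CD between 0.248 and 0.754. Neighbours in the order whose libraries overlapped, so that their rank is not set, were PIK3R2 with PIK3R3 and PIK3CA with PIK3C2B in NF1KO BYL719, PIK3R3 with PIK3R2, PIK3C2B with PIK3R1 and PIK3R1 with INPP4B in CTRL BYL719, and PIK3C2B with PIK3R1, PIK3R1 with PIK3CA and PIK3CD with PIK3IP1 in CTRL DMSO. In NF1KO DMSO no neighbours overlapped, with only 2 libraries to show it.

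**Figure D1:**
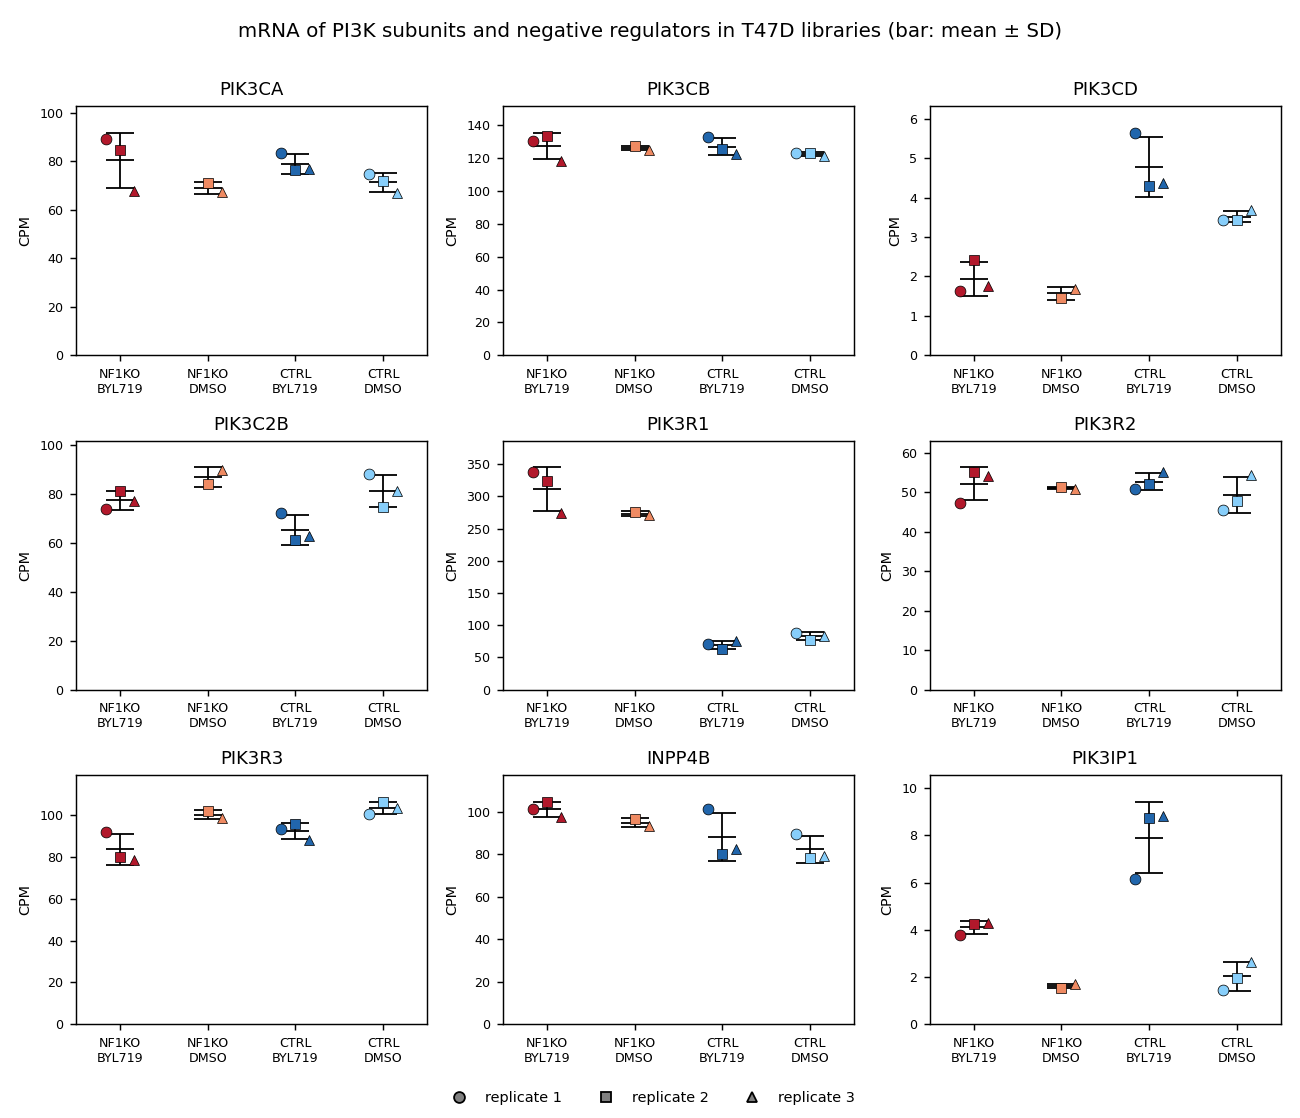
Level of each of the 9 transcripts in every library, in CPM on a linear axis from 0, with group means and SD as bars and replicate numbers as symbols. PIK3R1 lies between 270.4 and 337 CPM in NF1KO libraries and between 63.5 and 88.7 CPM in CTRL libraries, while PIK3R2 lies in overlapping ranges in each of the 4 comparisons.

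Between NF1KO and CTRL cells the members split into a few that differed strongly and a majority with small differences. In DMSO, PIK3R1 was higher and PIK3CD lower, 2 of 9 members, where 20.3% of all tested genes were called (9.99% higher, 10.3% lower). In BYL719, PIK3R1 and PIK3C2B were higher and PIK3CD and PIK3IP1 lower, 4 of 9 members, where 39.8% of all tested genes were called (20.8% higher, 19% lower). Both shares of members are near those of all genes, so the result lies in the size of single members and not in their number. The median log2 fold change of the members was 0.042 in DMSO and 0.0075 in BYL719, against -0.0115 and -0.0025 over all tested genes. In bulk RNA, fewer cells that express a gene and less of its RNA per cell cannot be told apart. A gene was called at an adjusted p under 0.05 in edgeR's quasi-likelihood test (2-sided, Benjamini-Hochberg over all tested genes), which gives every adjusted p below unless another tool is named.

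BYL719 against DMSO raised PIK3IP1 in both genotypes. In NF1KO cells, PIK3IP1 was higher and PIK3R3 lower, 2 of 9 members, where 18.7% of all tested genes were called (10.3% higher, 8.47% lower). In CTRL cells, PIK3IP1 and PIK3CD were higher and PIK3C2B and PIK3R1 lower, 4 of 9 members, where 44.4% of all tested genes were called (22.6% higher, 21.8% lower). These shares too are near those of all genes. The members' median was 0.092 in NF1KO and 0.097 in CTRL, against 0.014 and 0.0049 over all tested genes. For the difference of the BYL719 effect between genotypes, NF1KO minus CTRL, 0 of 9 members were called, where 9.39% of all tested genes were (5.68% higher, 3.71% lower). At an unadjusted p under 0.05, 1 member (PIK3R1) passed in edgeR. DESeq2 called 1 member, also PIK3R1, and limma-voom called 0. Each group of libraries enters a genotype comparison and a treatment comparison, so the values of the 4 comparisons are not independent of each other.

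**Figure D2:**
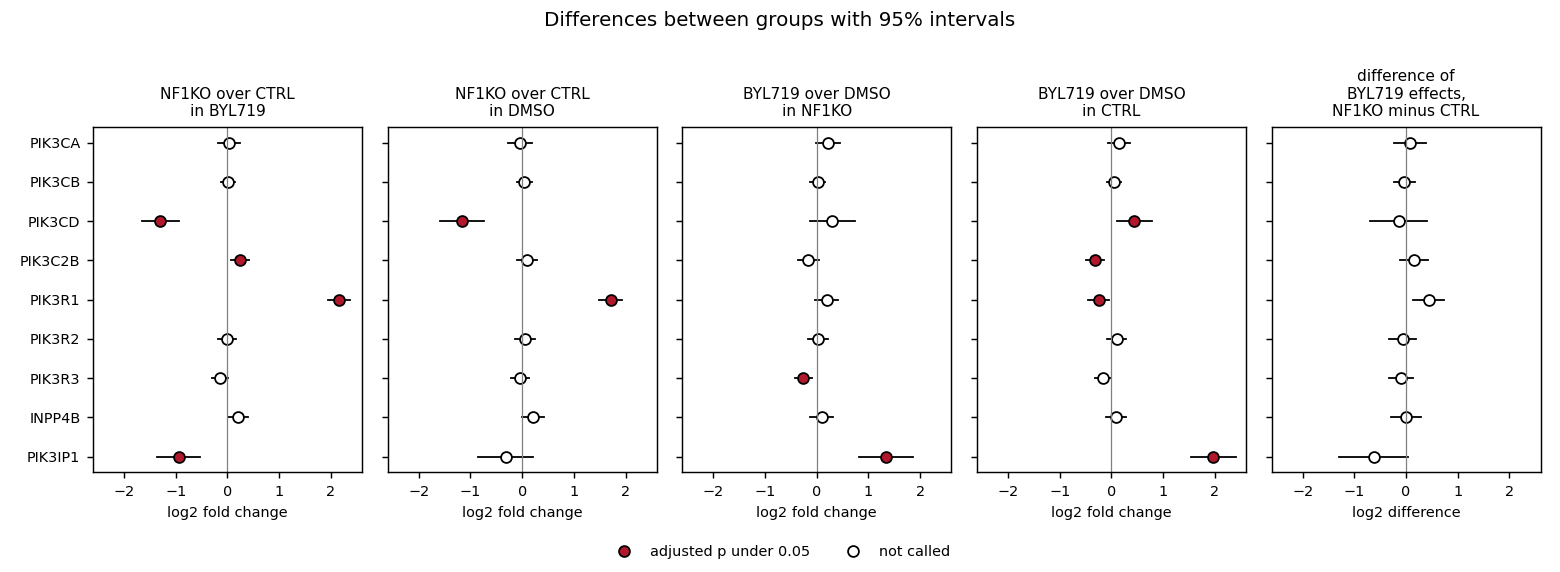
Log2 fold change of each member in the 4 comparisons, and the difference of the BYL719 effect (NF1KO minus CTRL) in the last panel, with 95% intervals as horizontal lines. Filled points have an adjusted p under 0.05. PIK3R1 stands at 2.16 in BYL719 and 1.72 in DMSO in the panels of NF1KO over CTRL, and PIK3IP1 at 1.34 in NF1KO and 1.97 in CTRL in the BYL719 panels.

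Among the regulatory subunits, PIK3R1 carried the main difference between the genotypes. PIK3R1 encodes p85α and, from inner start sites, the shorter p55α and p50α, and lies at chr5:68215756-68301821 on the plus strand (GRCh38, RefSeq). Its level was 337, 324 and 274 CPM in the 3 NF1KO BYL719 libraries and 276 and 270.4 CPM in the 2 NF1KO DMSO libraries, against 70.4, 63.5 and 75.9 CPM in the 3 CTRL BYL719 libraries and 88.7, 77.0 and 83.7 CPM in the 3 CTRL DMSO libraries. Every NF1KO library lay above every CTRL library in both treatments. PIK3R1 was 3.29-fold higher in NF1KO than in CTRL in DMSO (log2 fold change 1.72 ± 0.10 SE, adjusted p = 2.22e-07) and 4.45-fold higher in BYL719 (2.16 ± 0.10, adjusted p = 7.55e-09). Both calls held in all 20 alternative analyses of each comparison, with log2 fold changes of 1.66 to 1.77 in DMSO and 2.09 to 2.24 in BYL719. The genes around PIK3R1 had smaller differences. Of the 20 nearest tested genes, 10 on each side, 0 were called in DMSO, where 20.3% of all tested genes were. In BYL719, 5 were called, all higher, where 20.8% of all tested genes were called higher. Medians were 0.045 in DMSO and 0.056 in BYL719 on the log2 scale, and the highest neighbour in BYL719 was CCNB1 at 1.34. In the annotation (GENCODE), the gene has 10 coding transcripts with 10 distinct starts, and counts per gene cannot tell their products apart.

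RefSeq lists 4 start regions for PIK3R1, and the outermost is shown because it belongs to the longest form of the transcript with the largest difference between the genotypes. The stretch runs from 250 bases before to 30 bases after the start, 5′ to 3′, at chr5:68215506-68215785 on the plus strand (RefSeq, GRCh38.p14). It has no capitals because the FOXO core GTAAACA, searched on both strands from 250 bases before to 50 after each start, was not found in it.
PIK3R1: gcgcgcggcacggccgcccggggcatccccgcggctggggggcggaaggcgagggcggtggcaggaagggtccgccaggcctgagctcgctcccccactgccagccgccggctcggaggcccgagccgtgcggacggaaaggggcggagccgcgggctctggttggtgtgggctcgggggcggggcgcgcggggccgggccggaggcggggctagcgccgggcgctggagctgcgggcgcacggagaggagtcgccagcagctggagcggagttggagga

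The response of PIK3R1 to the drug lay on opposite sides of 0 in the 2 genotypes, and the test of that difference missed the threshold. Its log2 fold change, BYL719 over DMSO, was 0.19 ± 0.10 in NF1KO (adjusted p = 0.222), where the libraries overlapped, and -0.25 ± 0.09 in CTRL (adjusted p = 0.0444), where every BYL719 library lay below every DMSO library. The fall in CTRL was called in 10 of 21 alternatives. It missed the threshold with upper-quartile scaling (-0.23, adjusted p = 0.0517), the 1 CPM filter (-0.24, 0.0512), only the compared libraries (-0.26, 0.053) and both CTRL replicates 1 left out (-0.21, 0.109). Dropping single libraries ended the call for 7 of the 11. Adjusted p became 0.123 (at -0.20) and 0.089 (at -0.25) without replicates 1 and 3 of CTRL DMSO, and 0.0589 (-0.25) and 0.164 (-0.18) without replicates 1 and 2 of CTRL BYL719. It became 0.0576 (-0.26) and 0.0623 (-0.25) without replicates 2 and 3 of NF1KO DMSO, and 0.0577 (-0.25) without replicate 2 of NF1KO BYL719. The difference of the effects was 0.44 ± 0.14 (95% interval 0.14 to 0.74, adjusted p = 0.0707). Blocking by replicate number inside each genotype gave 0.38 (adjusted p = 0.00125), a fit in which NF1KO BYL719 replicate 1 has no DMSO partner and adds nothing to the NF1KO effect. It also passed in DESeq2 (0.42, adjusted p = 0.0456) and, in edgeR, without NF1KO BYL719 replicate 3 (0.52, adjusted p = 0.0222).

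PIK3R2 and PIK3R3, which encode p85β and p55γ, did not share the difference of PIK3R1 between the genotypes. PIK3R2 averaged 52.1 ± 4.16 CPM in NF1KO BYL719 (SD, n = 3) and 51.1 ± 0.269 CPM in NF1KO DMSO (n = 2), against 52.6 ± 2.19 CPM in CTRL BYL719 and 49.2 ± 4.52 CPM in CTRL DMSO (n = 3 each). Its groups overlapped in all 4 comparisons, and the NF1KO-against-CTRL log2 fold change had a 95% interval of -0.14 to 0.25 in DMSO and -0.19 to 0.16 in BYL719.

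PIK3R3 was lower with BYL719 in NF1KO, missed the threshold in CTRL, and had no called difference between these responses. Its levels were 91.9, 80.0 and 78.7 CPM in NF1KO BYL719, against 101.7 and 98.7 CPM in NF1KO DMSO, and 93.5, 95.6 and 88.2 CPM in CTRL BYL719, against 100.4, 106 and 103 CPM in CTRL DMSO. In both genotypes every BYL719 library lay below every DMSO library. The log2 fold change was -0.26 ± 0.08 in NF1KO (adjusted p = 0.0343) and -0.16 ± 0.07 in CTRL (adjusted p = 0.0788), and the difference of these, -0.10 ± 0.10, was not called (adjusted p = 0.665). In CTRL, the fit with the replicate block within each genotype gave -0.16 (adjusted p = 0.00273). The fit without NF1KO BYL719 replicate 1 also passed in CTRL (-0.16, 0.0387). The NF1KO call ended on dropping NF1KO BYL719 replicate 2 or 3 (-0.23 and -0.22, adjusted p = 0.114 and 0.0799) or NF1KO DMSO replicate 2 or 3 (-0.24 and -0.28, adjusted p = 0.19 and 0.146). Between genotypes PIK3R3 was not called, except in BYL719 without NF1KO BYL719 replicate 1 (-0.22, adjusted p = 0.021). PIK3R3 shares its whole annotated span with the readthrough gene LOC110117498-PIK3R3, which holds 90.7% as many counts and had a log2 fold change of -0.25 ± 0.08 with BYL719 in NF1KO (adjusted p = 0.0476), so the values of PIK3R3 are uncertain as to which of the 2 genes its reads belong.

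Summed over the regulatory genes, the transcript pool of NF1KO cells was larger and of other make-up. PIK3R1, PIK3R2 and PIK3R3 together came to 51.7 ± 3.30 CPM per kilobase in NF1KO BYL719 (SD, n = 3) and 50.2 ± 0.707 in NF1KO DMSO (n = 2), against 30.6 ± 0.454 in CTRL BYL719 and 32.5 ± 1.02 in CTRL DMSO (n = 3 each). PIK3R1 made up 55.8 ± 2.56% and 50.5 ± 0.0205% of this sum in NF1KO BYL719 and NF1KO DMSO, against 21.2 ± 1.62% in CTRL BYL719 and 23.7 ± 1.88% in CTRL DMSO. The summed catalytic genes PIK3CA, PIK3CB and PIK3CD came to 25.0 ± 2.19, 23.6 ± 0.427, 25.2 ± 1.20 and 23.7 ± 0.550 CPM per kilobase in NF1KO BYL719, NF1KO DMSO, CTRL BYL719 and CTRL DMSO. This sum overlapped between the genotypes in both treatments and between the treatments in NF1KO, while in CTRL it was 24.4 to 26.6 with BYL719 against 23.1 to 24.1 with DMSO. The sum of regulatory over catalytic transcripts was 2.07 ± 0.0590 and 2.13 ± 0.00850 in NF1KO BYL719 and NF1KO DMSO, against 1.21 ± 0.0676 and 1.37 ± 0.0755 in CTRL BYL719 and CTRL DMSO. These sums are a description of transcripts per length with no test of their own, and protein was not measured. Counts of LOC110117498-PIK3R3 are not in them. The uncertain level of PIK3R3 therefore carries over to the regulatory sums, the PIK3R1 shares and the ratios.

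**Figure D3:**
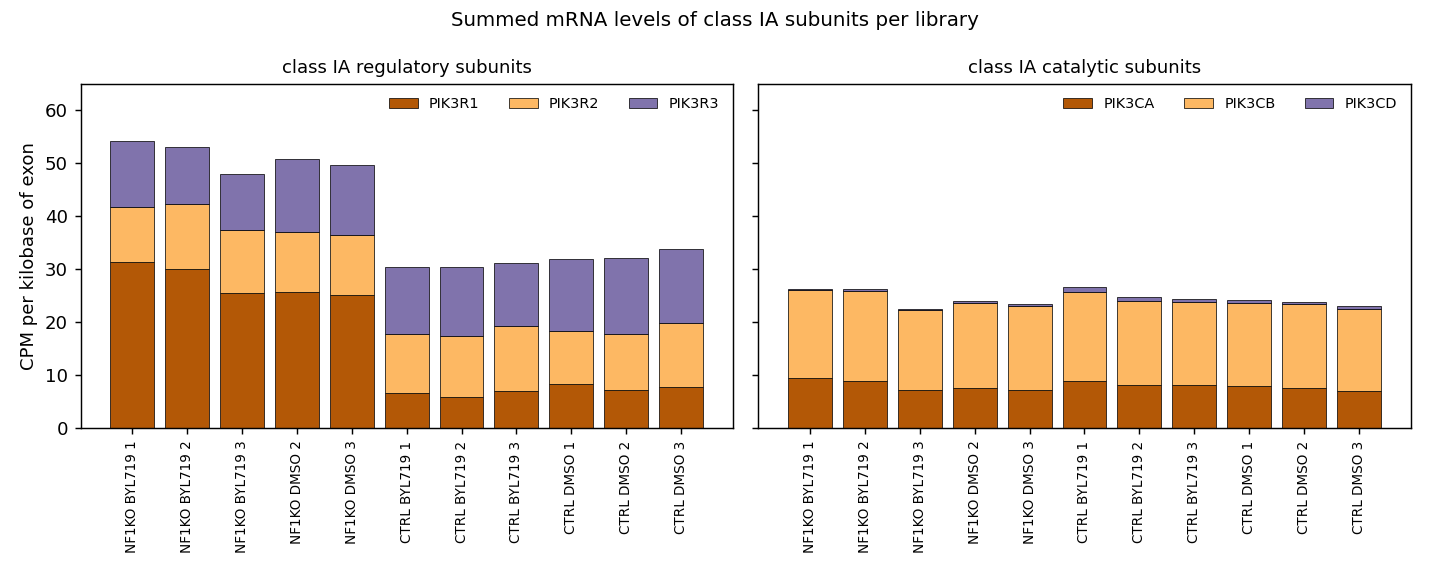
Summed transcript level of the class IA regulatory genes (left) and catalytic genes (right) in each library, in CPM per kilobase of exon on a shared axis from 0, stacked by gene. The regulatory sum lies between 48.0 and 54.2 in NF1KO libraries and between 30.3 and 33.7 in CTRL libraries, and the catalytic sum between 22.5 and 26.6 over all libraries. Counts of the readthrough gene LOC110117498-PIK3R3 are not included.

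Of the class IA catalytic subunits, PIK3CD alone was called between the genotypes. PIK3CD encodes p110δ, best known from leukocytes, and lies at chr1:9627258-9729114 on the plus strand. It was the least abundant transcript per length in 3 of the 4 groups, with 93, 133 and 97 counts in NF1KO BYL719 libraries and 79 and 93 counts in NF1KO DMSO libraries, against 334, 231 and 254 counts in CTRL BYL719 libraries and 200, 189 and 198 counts in CTRL DMSO libraries. As levels these were 1.63, 2.43 and 1.76 CPM in NF1KO BYL719 and 1.46 and 1.69 CPM in NF1KO DMSO, against 5.65, 4.30 and 4.38 CPM in CTRL BYL719 and 3.44, 3.44 and 3.68 CPM in CTRL DMSO. Every NF1KO library lay below every CTRL library. PIK3CD was lower in NF1KO than in CTRL by a log2 fold change of -1.16 ± 0.20 in DMSO (adjusted p = 0.00117), which is 0.447 times the CTRL level, and of -1.30 ± 0.17 in BYL719 (adjusted p = 5.33e-05), or 0.406 times. Both calls held in all 20 alternatives of each comparison.

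Of the leukocyte markers, CD68 moved with PIK3CD, at low levels, while the others were at or near 0. CD68, the only leukocyte marker with enough counts to be tested, had log2 fold changes of -0.88 ± 0.22 in NF1KO against CTRL in DMSO (adjusted p = 0.0135) and -1.07 ± 0.18 (adjusted p = 0.000425) in BYL719. The 3 markers summed to 0.926 to 1.15 CPM in NF1KO BYL719, 0.670 to 0.886 CPM in NF1KO DMSO, 1.83 to 2.62 CPM in CTRL BYL719 and 1.30 to 1.49 CPM in CTRL DMSO. The defining markers PTPRC and CD3E were at 0 in every library except in the CTRL BYL719 group. There neither passed 2 counts a library, so the sums rest on CD68. PIK3CD shares 189 bases at its end with CLSTN1, a gene with 90314 counts over all libraries against 1901 for PIK3CD, and CLSTN1 was not called in any comparison, with a log2 fold change of -0.01 ± 0.09 between the genotypes in DMSO and -0.15 ± 0.08 in BYL719.

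Under BYL719, PIK3CD was higher than in DMSO in CTRL cells by a log2 fold change of 0.44 ± 0.16 (adjusted p = 0.0385), and every BYL719 library lay above every DMSO library there. In NF1KO cells the log2 fold change was 0.30 ± 0.20 (95% interval -0.13 to 0.73, adjusted p = 0.327), with overlapping libraries, and the difference between genotypes was -0.14 ± 0.25 (adjusted p = 0.822). The call in CTRL depended on 6 of the 11 libraries. Adjusted p became 0.0822, 0.0973 and 0.0687 (at 0.42, 0.43 and 0.47) on dropping replicates 1, 2 and 3 of CTRL DMSO in turn, 0.127 (at 0.30) on dropping replicate 1 of CTRL BYL719, and 0.0528 and 0.0503 (both at 0.44) on dropping replicates 2 and 3 of NF1KO DMSO. With both CTRL replicates 1 left out it was 0.28 (adjusted p = 0.173). CTRL BYL719 replicate 1, at 5.65 CPM, was the highest of the 3.

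PIK3CA and PIK3CB, which encode the broadly expressed p110α and p110β, were not called in any comparison. PIK3CA, the target of the drug, stood at 89.0, 84.6 and 67.5 CPM in NF1KO BYL719, against 70.8 and 67.2 CPM in NF1KO DMSO, and at 83.5, 76.4 and 76.6 CPM in CTRL BYL719, against 74.9, 72.0 and 67.0 CPM in CTRL DMSO. It shares 391 bases of its span with KCNMB3, which had 6.57% as many counts. In CTRL every BYL719 library lay above every DMSO library, and in NF1KO the libraries overlapped because of BYL719 replicate 3. The log2 fold change was 0.22 ± 0.11 in NF1KO (95% interval -0.01 to 0.45, adjusted p = 0.171) and 0.15 ± 0.09 in CTRL (-0.06 to 0.35, adjusted p = 0.236). With the replicate block within each genotype, the CTRL value of 0.15 passed (adjusted p = 0.0143), and without NF1KO BYL719 replicate 3 the NF1KO value of 0.33 passed (adjusted p = 0.0163). PIK3CB varied least of the 9 over the groups, with means of 128, 126, 127 and 123 CPM in NF1KO BYL719, NF1KO DMSO, CTRL BYL719 and CTRL DMSO. Its libraries overlapped in 3 of the 4 comparisons, and between genotypes in DMSO they stood apart, at 127 and 125 CPM in NF1KO, against 123, 123 and 121 CPM in CTRL. Its 95% intervals were -0.11 to 0.19 between genotypes in DMSO, -0.13 to 0.14 in BYL719, -0.14 to 0.17 for BYL719 in NF1KO and -0.09 to 0.18 in CTRL, so differences beyond about these bounds were not seen. As a share of summed catalytic transcripts per length, PIK3CB held 65.1% in NF1KO BYL719, 68.2% in NF1KO DMSO, 64.1% in CTRL BYL719 and 66.0% in CTRL DMSO, and PIK3CD 1.22%, 1.05%, 2.98% and 2.35% in the same groups.

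PIK3C2B, the class II enzyme, makes other phosphoinositides than class I and needs no p85 partner. Its levels were 73.7, 81.3 and 77.3 CPM in NF1KO BYL719 and 84.0 and 89.8 CPM in NF1KO DMSO, against 72.4, 61.1 and 62.7 CPM in CTRL BYL719 and 88.1, 74.9 and 81.3 CPM in CTRL DMSO. In both genotypes every BYL719 library lay below every DMSO library. The log2 fold change, BYL719 over DMSO, was -0.17 ± 0.09 in NF1KO (adjusted p = 0.234) and -0.32 ± 0.08 in CTRL (adjusted p = 0.00819), and the CTRL call held in all 21 alternatives. The difference of these effects, 0.15 ± 0.12, was not called (adjusted p = 0.568). NF1KO against CTRL, PIK3C2B was not called in DMSO (0.09 ± 0.09, adjusted p = 0.502) and was higher in BYL719 (0.24 ± 0.08, adjusted p = 0.0335). On dropping NF1KO BYL719 replicate 2 or 3 it was no longer called (0.21 and 0.24, adjusted p = 0.114 and 0.0663), nor on dropping CTRL BYL719 replicate 2 or 3 (both 0.20, adjusted p = 0.118 and 0.116), nor with only the compared libraries (0.24, adjusted p = 0.0563).

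Among the negative regulators, PIK3IP1 had the largest response to BYL719 of the 9 members. It lies at chr22:31281593-31292534 on the minus strand and encodes a membrane protein with a kringle domain. The counts were 216, 233 and 235 in NF1KO BYL719 libraries, against 84 and 93 in NF1KO DMSO libraries, and 364, 469 and 512 in CTRL BYL719 libraries, against 84, 108 and 143 in CTRL DMSO libraries. As levels these were 3.77, 4.25 and 4.27 CPM in NF1KO BYL719, against 1.55 and 1.69 CPM in NF1KO DMSO, and 6.16, 8.72 and 8.84 CPM in CTRL BYL719, against 1.44, 1.97 and 2.65 CPM in CTRL DMSO. In both genotypes every BYL719 library lay above every DMSO library, and every CTRL BYL719 library lay above every NF1KO BYL719 library. BYL719 raised PIK3IP1 by 2.53-fold in NF1KO (log2 fold change 1.34 ± 0.24, adjusted p = 0.0029) and by 3.92-fold in CTRL (1.97 ± 0.20, adjusted p = 1.01e-05). Both calls held in all 21 alternatives of each comparison. Of the 20 nearest tested genes, 1 was called higher and 1 lower with BYL719 in NF1KO, and 6 higher and 4 lower in CTRL. Their medians were 0.049 and 0.036 on the log2 scale. Over all tested genes the shares were 10.3% higher and 8.47% lower in NF1KO, and 22.6% higher and 21.8% lower in CTRL.

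The estimated rise of PIK3IP1 was smaller in NF1KO than in CTRL, with a test that missed the threshold. The difference of the effects was -0.63 ± 0.31 (95% interval -1.30 to 0.04, adjusted p = 0.276). With the replicate block within each genotype it was -0.58 (adjusted p = 0.0296), again with NF1KO BYL719 replicate 1 unpaired. Set against CTRL, the NF1KO level was 0.519 times as high in BYL719 (-0.95 ± 0.19, adjusted p = 0.00166), a call that held in all 20 alternatives. In DMSO it was not called (-0.32 ± 0.24, 95% interval -0.85 to 0.22, adjusted p = 0.391), and the libraries overlapped. CTRL DMSO replicate 1 was the lowest CTRL library for this gene and CTRL BYL719 replicate 1 the lowest treated one, and without both of these the DMSO value was -0.51 (adjusted p = 0.0406). Leaving out single libraries gave -0.51 to -0.074, none of them called, with the value nearest 0 (adjusted p = 0.849) on dropping CTRL DMSO replicate 3.

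The start region of PIK3IP1 is shown because its transcript had the largest response to the drug, and that of PIK3CA because it was the other member with a match to the FOXO core GTAAACA. The capitals mark the match, which lies on the opposite strand and so reads TGTTTAC. PIK3IP1 has 2 RefSeq start regions, and this is the region with the match, at chr22:31292459-31292738 on the minus strand. In PIK3CA the stretch is chr3:179148107-179148386 on the plus strand. Each is printed 5′ to 3′ from 250 bases before to 30 after the start (RefSeq, GRCh38.p14).
PIK3IP1: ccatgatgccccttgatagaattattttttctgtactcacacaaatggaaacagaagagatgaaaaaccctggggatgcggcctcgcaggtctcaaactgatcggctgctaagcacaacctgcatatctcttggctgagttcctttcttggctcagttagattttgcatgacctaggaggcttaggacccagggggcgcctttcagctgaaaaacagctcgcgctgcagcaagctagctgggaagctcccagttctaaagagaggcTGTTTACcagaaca
PIK3CA: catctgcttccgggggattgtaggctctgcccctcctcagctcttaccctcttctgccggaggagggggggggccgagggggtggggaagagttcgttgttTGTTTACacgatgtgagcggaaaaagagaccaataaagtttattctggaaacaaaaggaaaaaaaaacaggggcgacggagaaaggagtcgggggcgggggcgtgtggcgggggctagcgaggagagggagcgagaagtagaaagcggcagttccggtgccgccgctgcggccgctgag
The match in PIK3IP1 lies at positions 17 to 23 after the start, and that in PIK3CA at -149 to -143. FOXO cores were found in 2 of the 26 member regions of 300 bases, and in 3.42% of 35116 such regions of all genes. Of 7 other motifs, all searched on both strands, the ETS core CCGGAAG was found in 2 of the 26 regions, of PIK3CA and PIK3R2 (10.3% of all regions). The estrogen response half-site AGGTCA was found in 4 of the 26, of PIK3R3, INPP4B and PIK3IP1 (13.8%). Regions of the same gene can overlap, and the 2 PIK3IP1 regions hold the same half-site. The antioxidant response core TGANNNNGC was found in 8 of the 26, of PIK3R1, PIK3R3 and INPP4B (41.8%). None of the 26 held the AP-1 motif TGANTCA (7.71% of all regions), the cAMP response element TGACGTCA (1.85%), the E2F motif TTTGGCGC (0.652%) or the SREBP motif TCACCCCAC (0.430%). A match of letters is no evidence of binding, and binding was not measured.

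INPP4B, which removes a phosphate from a phosphoinositide that class I PI3K gives rise to, was not called in any comparison. Its levels were 101.3, 104.5 and 97.5 CPM in NF1KO BYL719 and 96.4 and 93.3 CPM in NF1KO DMSO, against 101.0, 80.2 and 82.6 CPM in CTRL BYL719 and 89.5, 78.0 and 79.2 CPM in CTRL DMSO. CTRL replicate 1 was the highest of its group in both treatments, and in DMSO the NF1KO libraries lay above all CTRL libraries. NF1KO against CTRL, the log2 fold change was 0.21 ± 0.10 in DMSO (95% interval -0.01 to 0.42, adjusted p = 0.166) and 0.20 ± 0.09 in BYL719 (0.01 to 0.39, adjusted p = 0.0937). Both passed with the replicate number as a block over all libraries, at 0.26 (adjusted p = 0.0229) in DMSO and 0.21 (adjusted p = 0.02) in BYL719. In BYL719 the value without CTRL BYL719 replicate 1 was 0.31 (adjusted p = 0.00428), and without both CTRL replicates 1 the values were 0.27 in DMSO (adjusted p = 0.00541) and 0.32 (adjusted p = 0.000434) in BYL719. For BYL719 over DMSO, INPP4B had log2 fold changes of 0.09 ± 0.10 in NF1KO (adjusted p = 0.57) and 0.10 ± 0.09 in CTRL (adjusted p = 0.408).

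The genes whose pattern over the 11 libraries came closest to the 4 members with the largest variation between groups were named by the root mean square difference of log2 CPM after centring, among 10943 protein-coding candidates. For PIK3R1 these were STMND1 (0.20), CDK8 (0.21) and STS (0.21), with NF1KO-against-CTRL log2 fold changes in DMSO of 1.65, 1.37 and 2.19. For PIK3IP1 they were CYBRD1 (0.21 of difference), TMC4 (0.23) and GTF2IRD2 (0.26), with BYL719 log2 fold changes of 1.71, 1.66 and 1.61 in NF1KO and 2.12, 2.39 and 1.83 in CTRL. For PIK3CD they were LMOD1 (0.10), PARD3B (0.15) and ZNF185 (0.16), and for PIK3C2B, whose whole variation was small, KHSRP, PPM1F and SAMD4B (0.05 to 0.06). They were chosen for this likeness, so their fold changes are a description.

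Other PI3K genes, of classes I, II and III, were measured for 8 symbols, of which 6 had enough counts. NF1KO against CTRL, 0 were higher and 1 lower in DMSO, and 0 higher and 2 lower in BYL719, with medians of -0.17 and -0.26 on the log2 scale. The shares of all tested genes called were 20.3% and 39.8%, so these counts are near or below those of all genes. PIK3R5, a regulatory subunit of the class IB enzyme, was the member of this list that fell in both, at 0.419, 0.474 and 0.327 CPM in NF1KO BYL719 and 0.332 and 0.235 CPM in NF1KO DMSO, against 0.897, 1.62 and 1.17 CPM in CTRL BYL719 and 0.756, 1.28 and 0.817 CPM in CTRL DMSO. Its log2 fold changes were -1.73 ± 0.37 in DMSO (adjusted p = 0.00536) and -1.58 ± 0.29 (adjusted p = 0.000953) in BYL719, and the first was lost without NF1KO DMSO replicate 3 (-1.51, adjusted p = 0.0762). Under BYL719, 1 gene was higher and 0 lower in each genotype. This was PIK3C3, the class III enzyme (Vps34) of endosomes and autophagy, at 45.7 to 48.3 CPM in NF1KO BYL719, against 36.3 and 32.9 CPM in NF1KO DMSO, and at 51.6, 55.3 and 53.2 CPM in CTRL BYL719, against 33.2, 32.3 and 31.9 CPM in CTRL DMSO. The groups stood apart in both genotypes, with log2 fold changes of 0.44 ± 0.07 in NF1KO (adjusted p = 0.00142) and 0.72 ± 0.06 in CTRL (adjusted p = 2.59e-06).

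The other phosphoinositide phosphatases, 23 tested of 24 listed, mostly had small differences. NF1KO against CTRL, 0 rose and 4 fell in DMSO, and 1 rose and 5 fell in BYL719, with medians of -0.030 and -0.091, where 20.3% and 39.8% of all tested genes were called, so the counts are near or below the shares of all genes. The lowest adjusted p belonged in DMSO to SYNJ2, a synaptojanin (-0.43 ± 0.07, adjusted p = 0.00134), and in BYL719 to MTMR3, a myotubularin that acts on PI3P (-0.22 ± 0.06, adjusted p = 0.0108). With BYL719 against DMSO, 1 rose and 3 fell in NF1KO, and 4 rose and 7 fell in CTRL, with medians of -0.027 and -0.069, and with 18.7% and 44.4% of all tested genes called. In CTRL, INPP5K, which acts on PIP3 and PIP2, had the lowest adjusted p, at 36.6, 45.1 and 45.1 CPM with BYL719 against 24.2, 27.1 and 25.7 CPM with DMSO (0.72 ± 0.08, adjusted p = 2.97e-05). INPPL1, which encodes the PIP3 phosphatase SHIP2, was lower there (-0.40 ± 0.09, adjusted p = 0.00299). In NF1KO the lowest adjusted p belonged to PIP4P1, a PIP2 phosphatase (-0.32 ± 0.07, adjusted p = 0.0119), which was no longer called on dropping NF1KO BYL719 replicate 2 (-0.28, 0.0501) or NF1KO DMSO replicate 2 or 3 (both -0.32, 0.0857 and 0.098).

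All 11 listed phosphoinositide kinases, which supply or extend the lipids that PI3K uses, were tested. NF1KO against CTRL, 1 rose and 1 fell in DMSO, and 0 rose and 3 fell in BYL719, with medians of -0.13 and -0.12, against 20.3% and 39.8% of all tested genes called. PIP4K2A, a PI5P kinase, had the lowest adjusted p in both, with log2 fold changes of -0.60 ± 0.12 in DMSO (adjusted p = 0.00383, and 0.0576 at -0.55 without NF1KO DMSO replicate 3) and -0.55 ± 0.11 (adjusted p = 0.00121) in BYL719. Under BYL719, 0 rose and 1 fell in NF1KO, and 2 rose and 1 fell in CTRL, with medians of -0.076 and -0.025, against 18.7% and 44.4% of all tested genes called. All these counts are near or below the shares of all genes. PIP4K2C, of the same family, fell in both, by a log2 fold change of -0.32 ± 0.06 in NF1KO (adjusted p = 0.0036) and -0.21 ± 0.05 in CTRL (adjusted p = 0.0067).

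In the list of adaptors of class IA PI3K, which also holds the receptor ERBB3 and the ubiquitin ligase CBLB, 5 genes were higher with BYL719 in each genotype. The list was chosen with earlier results of these data known, so its counts and medians are a description. Of 10 listed, 8 were tested. With BYL719 against DMSO 5 rose and 0 fell in NF1KO, and 5 rose and 2 fell in CTRL, with medians of 0.48 and 0.44, against 0.014 and 0.0049 over all tested genes. Of all tested genes, 10.3% were called higher and 8.47% lower in NF1KO, and 22.6% higher and 21.8% lower in CTRL. ERBB3, a receptor that binds p85 directly, stood at 418, 436 and 399 CPM in NF1KO BYL719 and 298 and 283 CPM in NF1KO DMSO, against 682, 634 and 659 CPM in CTRL BYL719 and 397, 389 and 412 CPM in CTRL DMSO. In each of the 4 comparisons the groups stood apart. ERBB3 rose with BYL719 in NF1KO (0.52 ± 0.07, adjusted p = 0.00057) and in CTRL (0.72 ± 0.06, adjusted p = 2.44e-06), and was lower in NF1KO than in CTRL by -0.46 ± 0.07 in DMSO (adjusted p = 0.000561) and by -0.66 ± 0.06 (adjusted p = 4.19e-06) in BYL719. CBLB, a ubiquitin ligase that binds p85, rose with BYL719 by 0.60 ± 0.10 in NF1KO (adjusted p = 0.00219) and by 0.52 ± 0.09 in CTRL (adjusted p = 0.00055).

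NF1KO against CTRL, 1 gene of the adaptor list rose and 2 fell in DMSO, and 3 rose and 2 fell in BYL719. The medians were 0.057 and 0.080, where 20.3% and 39.8% of all tested genes were called. IRS1, the insulin receptor substrate, was the adaptor higher in NF1KO in both treatments, at 192, 195 and 180.0 CPM in NF1KO BYL719 and 109 and 118 CPM in NF1KO DMSO, against 128, 116 and 126 CPM in CTRL BYL719 and 50.4, 49.4 and 55.1 CPM in CTRL DMSO. The 2 groups stood apart in each treatment, with log2 fold changes of 1.14 ± 0.08 in DMSO (adjusted p = 6.63e-07) and 0.62 ± 0.07 (adjusted p = 1.69e-05) in BYL719. IRS1 and PIK3R1 were both higher in NF1KO than in CTRL in both treatments, while ERBB3, which binds p85 directly, was lower in both. Complexes of these proteins were not measured.

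**Figure D4:**
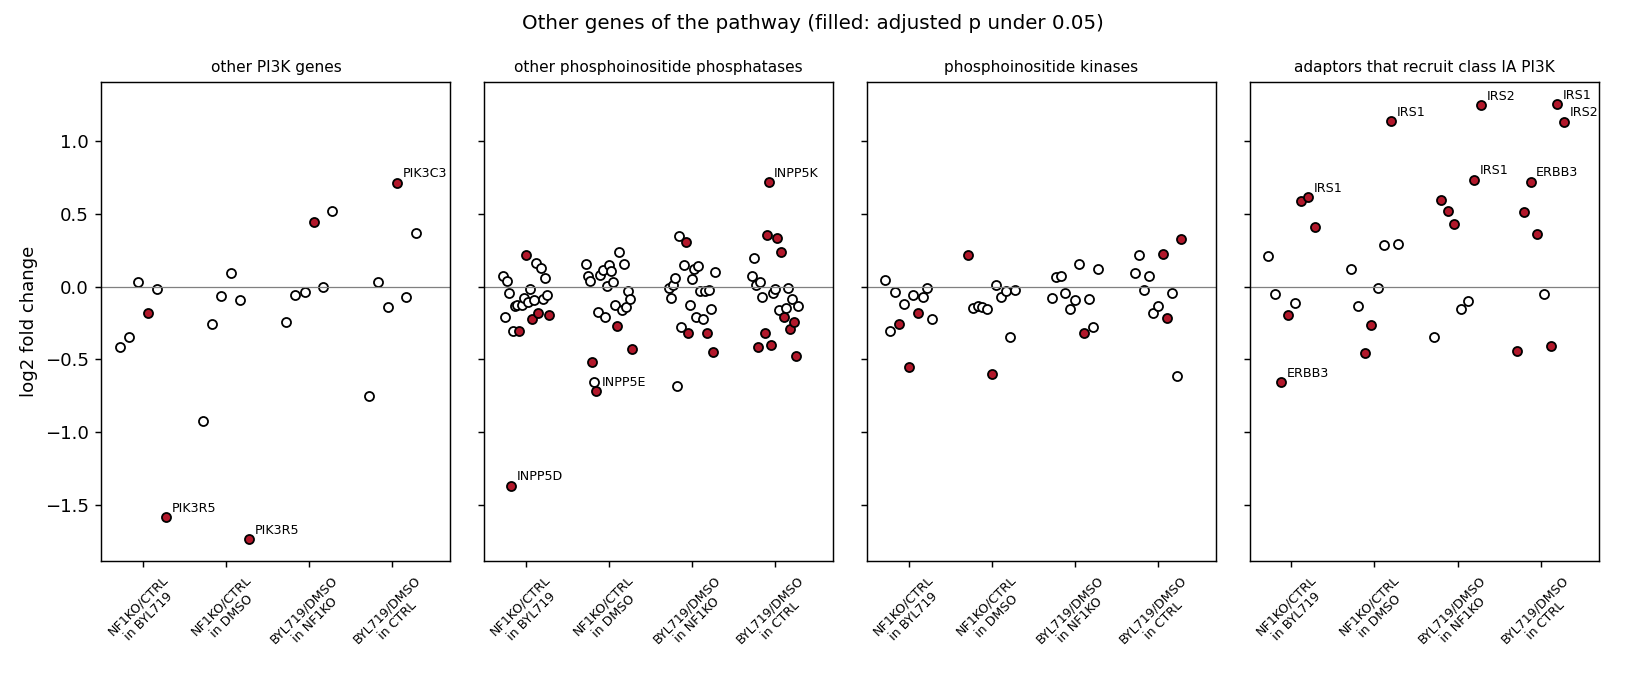
Log2 fold change of each tested gene of 4 lists of the pathway in 4 comparisons, with points spread sideways only to separate them. Filled points have an adjusted p under 0.05, and the genes with the largest called changes are named. The adaptor list with BYL719 against DMSO has 5 called genes above 0 in each genotype, with medians of 0.48 in NF1KO and 0.44 in CTRL. This list also holds the receptor ERBB3 and the ubiquitin ligase CBLB. All 4 lists were chosen with earlier results of these data known.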

How the data were processed

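Per the labels' protocols, poly(A) RNA of T47D cells was sequenced from stranded mRNA libraries. The authors deposited whole-number counts per Entrez gene, not normalised. Per the submitters' processing notes, STAR 2.5.2a, SAMtools 1.7, Picard 2.9.2 and edgeR were used with build hg38. The counting tool, gene annotation and strand setting are not given in the sources used here, so reads of overlapping genes may be shared or lost. Of 12 labelled samples, 11 had a column, and no other column was left unused. Ribosomal RNA genes took 8.45% to 12.3% of counts.

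The fit used edgeR 4.0.16 (R 4.3.3): filterByExpr (16081 genes kept), TMM scaling, 1 coefficient per group, 7 residual degrees of freedom, and quasi-likelihood tests of 5 comparisons. Each SE is the absolute log2 fold change over the root of F. Gene positions and start regions came from RefSeq (27740 Entrez identifiers, 99.6%, matched) and lengths from GENCODE v29 exons. The members and lists were chosen with earlier results of these data known. Named were the members, genes overlapping them, up to 4 called genes per list and comparison by adjusted p (in the text those first in that order, with examples), and the 3 genes most like each of 4 members.

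Other settings tried were scaling by RLE or by upper quartiles, keeping all genes or those with 1 CPM or more in 3 libraries, DESeq2 1.42.0, limma-voom (limma 3.58.1), a replicate block over all libraries or within each genotype (BYL719 comparisons only), only the compared libraries, leaving out each library, and leaving out both CTRL libraries numbered 1. A lone NF1KO DMSO library was taken to vary as the rest do. Deviations from group means of same-numbered CTRL libraries in BYL719 and DMSO correlated at 0.875, 0.796 and 0.719 across genes. DMSO 2 with BYL719 3 reached 0.581, and DMSO 3 with BYL719 2 reached 0.412. What the number marks is not given in the sources used here, so the numbers may pair the CTRL libraries. The 2 NF1KO pairs gave 0.25 and 0.375, and with 2 mirrored DMSO libraries cannot show pairing. The main fit was also run on simulated counts with independent libraries and the same spread for all genes. Those counts lacked the shared deviations of same-numbered CTRL libraries, so they cannot vouch for calls that change with the replicate block. Figures were drawn with matplotlib 3.10.9.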

Additional observations from a re-analysis of the deposited data

Results flagged for a closer look

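In the edgeR fit without a replicate block, IRS1 was the 1 gene called among the members and the 4 pathway lists when the difference of the BYL719 response between the genotypes was tested. The log2 fold change with BYL719 against DMSO was 0.73 ± 0.08 (SE) in NF1KO and 1.26 ± 0.07 in CTRL, and the difference, NF1KO minus CTRL, was -0.521 (adjusted p = 0.00685, edgeR quasi-likelihood test). Without NF1KO DMSO replicate 3 the difference was -0.46 (adjusted p = 0.0597). Among the members, the same difference was called for PIK3R1 and PIK3IP1 with the replicate block within each genotype (0.375 and -0.579, adjusted p = 0.00125 and 0.0296), and for PIK3R1 also in DESeq2 (0.425, adjusted p = 0.0456) and without NF1KO BYL719 replicate 3 (0.524, adjusted p = 0.0222).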

How the results depend on the processing

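The calls of PIK3R1 and PIK3CD between genotypes, of PIK3IP1 between genotypes in BYL719 and with BYL719 in both genotypes, and of PIK3C2B with BYL719 in CTRL kept their direction and passed the threshold in every alternative run. The other 4 member calls were lost in the fits named beside them. With both CTRL libraries numbered 1 left out, members called became 4 for NF1KO against CTRL in DMSO and 2 for BYL719 in CTRL, and genes called became 5306 for BYL719 in NF1KO and 2405 for the difference of the effects. Genes called for BYL719 in NF1KO were 4664 with the replicate block over all libraries and 6744 with the replicate block within each genotype, against 3014 without it. For the difference, the replicate block within each genotype gave 2 members and 4345 genes, DESeq2 gave 1 member, and the fit without a block gave 0 members and 1510 genes. In CTRL, where same-numbered libraries deviated together, the block changed no member call other than those of PIK3CA and PIK3R3. The cause of these shifts was not tested. Fits that leave libraries out also rest on fewer libraries, and the part of this was not tested either.

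Leaving out each library in turn, genes called ranged from 1530 to 4261 for NF1KO against CTRL in DMSO, from 795 to 3945 for BYL719 in NF1KO and from 740 to 2148 for the difference, lowest without NF1KO DMSO replicate 3 each time. Members called ranged from 2 to 5 for BYL719 in CTRL, from 1 to 2 for BYL719 in NF1KO and from 0 to 1 for the difference.

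Log2 values that changed sign were not called in any fit that changed it. For PIK3CA these were 0.006 (NF1KO against CTRL in DMSO, replicate block over all libraries) and -0.012 (difference, replicate block within each genotype). For PIK3CB they were, NF1KO against CTRL in BYL719, -0.004 (RLE, upper-quartile and DESeq2) and -0.002 (1 CPM filter), and for BYL719 in NF1KO -0.004 and -0.005 (replicate block over all libraries and within each genotype). The difference became 0.016 for PIK3CD and 0.045 for INPP4B without both CTRL libraries numbered 1, and 0.005 for INPP4B with no filter. Leaving out each library, NF1KO against CTRL in BYL719 ranged from -0.052 to 0.139 for PIK3CA, from -0.027 to 0.057 for PIK3CB and from -0.053 to 0.051 for PIK3R2. BYL719 in NF1KO ranged from -0.019 to 0.065 for PIK3CB and from -0.011 to 0.094 for PIK3R2, and in CTRL from -0.015 to 0.158 for INPP4B. The difference ranged from -0.004 to 0.187 for PIK3CA, from -0.076 to 0.015 for PIK3CB and from -0.07 to 0.107 for INPP4B. Depth limits PIK3CD and PIK3IP1 most, with 79 to 334 and 84 to 512 counts a library.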
